A study of Mus musculus with 14 samples.

Results

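Acyl-CoA thioesterases cut the bond between a fatty acid, or another acyl group, and coenzyme A. The genes described here are Acot1, Acot2, Acot3, Acot4, Acot7, Acot8, Acot9, Acot12 and Acot13, chosen by symbol and joined to the count table by Ensembl identifier. All 9 were found among the 37681 genes of the table, and all 9 were expressed highly enough to be among the 17223 genes tested. They were measured in the livers of 14 mice, 1 library each: 7 on a diet high in fat and sucrose (HFHS) and 7 on a diet low in both (LFLS). Diet is the sole difference between the groups that the labels give. The sources used here do not give the strain, sex or age of the mice, how long they were fed or when livers were taken. Polyadenylated RNA was sequenced as single reads, and the labels do not state that strand was kept, so where genes overlap or lie antisense to each other, their reads cannot be told apart.

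Acyl-CoA synthetases load fatty acids onto coenzyme A for oxidation, elongation or storage as lipid, and thioesterases reverse that step, releasing the free acid and coenzyme A. The family falls into type I enzymes, which share an alpha/beta hydrolase fold and sit in a gene cluster (Acot1 to Acot6 in the mouse), and type II enzymes with a hotdog fold, spread over several chromosomes. In liver, members work in the cytosol, mitochondria and peroxisomes, and several type I genes are known targets of PPAR alpha, the nuclear receptor that senses fatty acids.

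Total counts ran from 18.2 M to 52.8 M per library (M for mega), with a median of 29.3 M, and any 2 libraries of a diet had a correlation of at least 0.933. Sample titles began with 1 for LFLS 1 to 4 and HFHS 1 to 4, and with 2 for LFLS 5 to 7 and HFHS 5 to 7. The meaning of this title number is not in the labels, but libraries that shared it deviated together, so values within each number are given beside the pooled ones. Each library's deviations from the gene means were also correlated with the GC content of the genes. Within title number 1, r ran from 0.24 to 0.642 in LFLS and from -0.259 to 0.06 in HFHS. Diet and this GC trend thus cannot be told apart within number 1. Within number 2 the diets overlapped in r. Summed hepatocyte markers, Alb among them, stood at 67405 to 113990 CPM (counts scaled to library size) in LFLS and 57890 to 100930 in HFHS, so the labelled tissue matched its markers. Of 46 tested marker genes in 12 lists, 0 were called by edgeR's test, 8 had an unadjusted p under 0.05, and DESeq2 and limma voom each called 2. Over all tested genes, edgeR called 2.81%, DESeq2 7.30% and limma voom 19.0%, and 19.6% had an unadjusted p under 0.05 in edgeR. Summed markers of exocrine pancreas were highest in LFLS 2 (1267 CPM, against a median of 40.2 in LFLS and 23.1 in HFHS), and those of stellate cells in HFHS 1 (440 CPM, medians 216 and 249). Across diets, summed adipocyte markers stood at 1.90 to 10.1 CPM in LFLS (median 3.91) and 3.56 to 16.6 in HFHS (median 12.3), and 1 of 2 tested was called higher by DESeq2 and by limma voom. Summed stellate markers stood at 136 to 231 CPM in LFLS and 226 to 440 in HFHS. Of these 5 genes, 3 were higher at an unadjusted p under 0.05 in edgeR, and limma voom called 1 higher. Summed hepatocyte markers overlapped between diets. Of these 5 genes, 2 were lower at an unadjusted p under 0.05 in edgeR, and DESeq2 called 1 lower. The part of these markers in the results on Acot genes was not tested. In bulk tissue, fewer cells of a type and less RNA per cell cannot be told apart.

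The 4 type I members lie side by side on the plus strand of chromosome 12 in the order Acot2, Acot1, Acot4, Acot3, followed by Acot5 and Acot6 (GENCODE M21, build GRCm38, which is not the authors' build mm9). Their coding sequences are close enough that short reads can fit more than 1 of them. Acot1 and Acot2 were identical at 1178 of 1236 aligned coding bases, or 95.31%, while Acot3 and Acot4 matched at 75.3%. The 60 bases below, from coding bases 1098 to 1157 of Acot1, show why this bears on the counts. Among 60-base stretches alike in Acot1 and Acot2, this one was picked for having the most columns that differ among the 4 genes. It is thus not typical: over the aligned coding bases, Acot1 matched Acot3 at 83.93% and Acot4 at 76.62%. Capitals mark the 31 columns in which the 4 genes are not all alike. 
Acot1: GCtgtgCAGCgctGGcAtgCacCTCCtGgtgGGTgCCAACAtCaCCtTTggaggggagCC
Acot2: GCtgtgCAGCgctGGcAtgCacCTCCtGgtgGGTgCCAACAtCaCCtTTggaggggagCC
Acot3: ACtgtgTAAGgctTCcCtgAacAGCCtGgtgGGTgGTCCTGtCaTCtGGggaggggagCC
Acot4: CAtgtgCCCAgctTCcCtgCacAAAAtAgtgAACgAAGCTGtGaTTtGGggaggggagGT
In this stretch Acot1 and Acot2 carry the same 60 bases, Acot3 differs from Acot1 at 19 and Acot4 at 29. A read of 50 bases, the length used here, that fell inside it could not be assigned between Acot1 and Acot2 but could be assigned to Acot3 or Acot4.

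Over whole transcripts, 19.0% of the 50-base windows of Acot1 and 27.7% of those of Acot2 also occurred in another gene of the table. The partner was mainly the other of the pair, with 13.6% of Acot1 windows found in Acot2 and 24.6% of Acot2 windows found in Acot1. The share was 8.17% for Acot3 and 4.83% for Acot4. Among type II members it was 15.2% for Acot9, all with the near copy Acot10, 9.77% for Acot8, all with the overlapping gene Snx21, 3.09% for Acot12, and 0 for Acot7 and Acot13. Only genes whose M21 identifiers are in the count table were searched, so these shares leave out the M21 gene 4732463B04Rik. Its exons cover 615 of the 6674 exon bases of Acot4 and 312 of the 3438 of Acot3 on the opposite strand. The shares of Acot4 and Acot3 are thus too low as a measure of reads that cannot be assigned. How the authors counted reads that fit several genes is not given in the sources used here, so the levels of Acot1 and Acot2 relative to each other are uncertain.

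**Figure D1:**
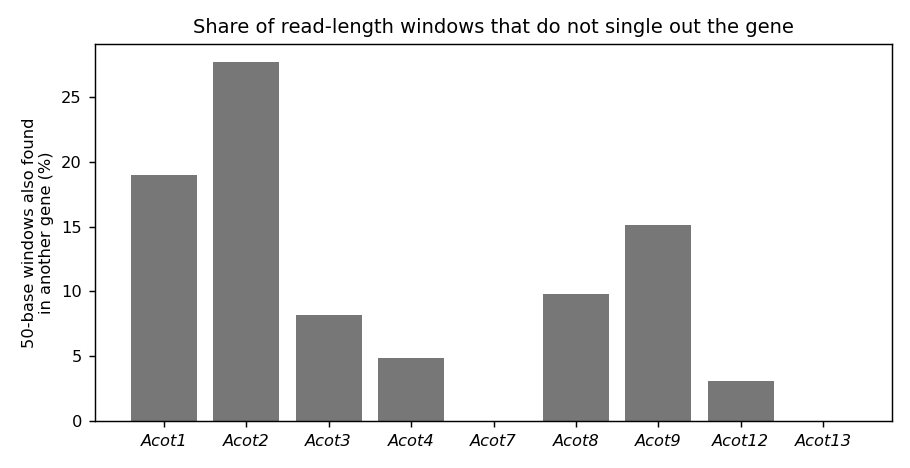
Share of 50-base windows (percent, vertical axis) in the transcripts of each of the 9 genes that also occur in transcripts of another gene of the table, from GENCODE M21. Bars start at 0. Acot2 (27.7%) and Acot1 (19.0%) have the highest bars, and Acot7 and Acot13 have none. The M21 gene 4732463B04Rik, which lies over Acot4 and Acot3 on the opposite strand, is not included.

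The question the design puts is how liver transcript levels differed between the diets. Acot4, a peroxisomal enzyme known for cleaving succinyl-CoA, was the 1 member of 9 that passed the test, and it rose on HFHS. With edgeR's quasi-likelihood test and Benjamini-Hochberg adjustment over all tested genes at 0.05, 2.81% of genes were called, 1.37% higher and 1.44% lower on HFHS. Acot4 stood at 45.5 ± 16.9 CPM in LFLS and 98.0 ± 38.3 CPM in HFHS (SD, n = 7 each), a 2.15-fold difference. Acot3, its neighbour and a peroxisomal long-chain enzyme, differed by a larger ratio, 3.50-fold, but with a spread so wide that it did not pass. No member was called lower by edgeR, DESeq2 or limma voom, which called 1, 2 and 3 members higher against 1.37%, 3.15% and 9.96% of tested genes. At an unadjusted p under 0.05 there were 4 higher (Acot3, Acot4, Acot9 and Acot13) and 0 lower. Of the 17223 tested genes, 19.6% passed in either direction, 1517 higher and 1861 lower. The median log2 difference over the 9 members was 0.40, against -0.01 over all tested genes, and 7 of 9 members had a positive value.

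**Figure D2:**
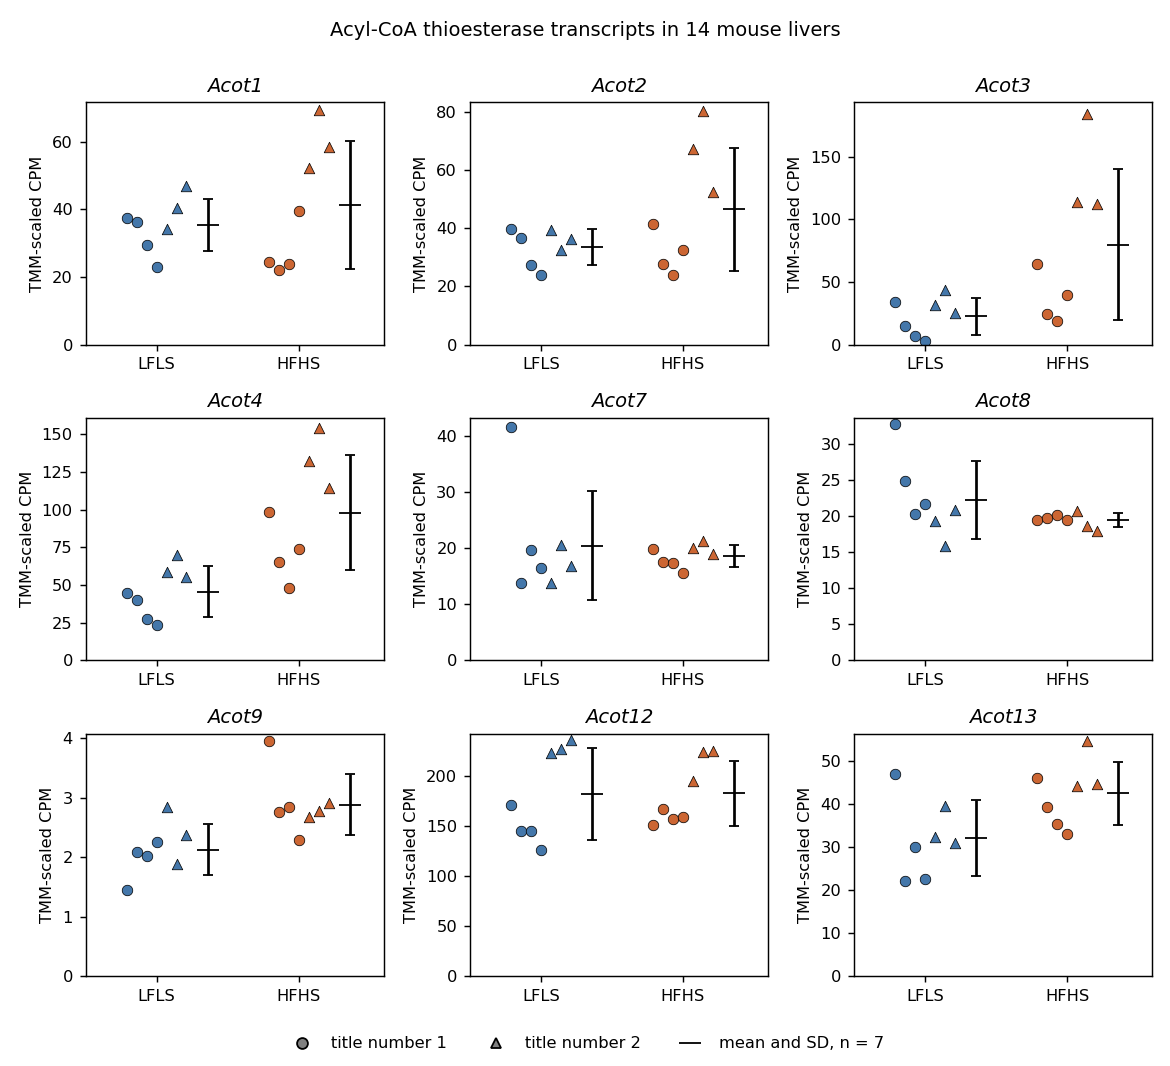
Level of each gene in each liver (CPM after TMM scaling, vertical axes from 0), LFLS in blue and HFHS in orange, circles for title number 1 and triangles for title number 2, with the mean and SD of 7 libraries beside the points. Acot4 is higher in HFHS within both symbols. In each of Acot1, Acot2, Acot3 and Acot4 the HFHS triangles all stand above the HFHS circles.

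The peroxisomal members come first. In LFLS, Acot4 ran from 23.2 CPM in LFLS 4 to 70.1 in LFLS 6 around a median of 44.5, and in HFHS from 48.0 in HFHS 3 to 154 in HFHS 6 around a median of 98.3. All 7 HFHS livers lay above the LFLS median and 5 of 7 above the highest LFLS liver, so the diets overlapped at HFHS 2 and HFHS 3. The log2 difference was 1.11 ± 0.28 (SE), with an adjusted p of 0.0451 by edgeR's quasi-likelihood test, close to the threshold. Leaving out 1 library at a time moved this adjusted p between 0.0253 and 0.109, and the call held without LFLS 6 or without HFHS 3 but was lost without any of LFLS 1 to 5, LFLS 7, HFHS 1, HFHS 2 or HFHS 4 to 7.

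Within each title number the Acot4 difference was nearly the same size. Among title number 1 livers it was 33.7 ± 10.0 CPM in LFLS and 71.3 ± 21.0 in HFHS (SD, n = 4 each), 1.10 ± 0.25 on the log2 scale (adjusted p = 0.0348, edgeR). Among title number 2 livers it was 61.2 ± 7.89 CPM in LFLS and 134 ± 20.0 in HFHS (SD, n = 3 each), 1.13 ± 0.14 on the log2 scale (adjusted p = 0.0179, edgeR). Within either number every HFHS liver lay above every LFLS liver. In number 1, diet and the GC trend cannot be told apart. Over all 14 libraries with an offset for GC content, the log2 difference was 1.07 ± 0.26 (adjusted p = 0.0394, edgeR). The offset was added once the data had been seen, and Acot4 was again the only member called. With the title number as a term in the edgeR fit, the log2 difference was 1.10 ± 0.17 with an adjusted p of 0.00260. That fit called 8.94% of all genes, 4.38% higher and 4.56% lower. Acot4 also passed in 14 of 14 such fits that each left out 1 library, which were added once the data had been seen.

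Acot3 showed the widest range of the family. In LFLS it ran from 3.27 CPM in LFLS 4 to 43.4 in LFLS 6, a 13.3-fold span within 1 diet, around a median of 25.1. In HFHS it ran from 19.1 in HFHS 3 to 184 in HFHS 6 around a median of 64.6. The same livers were lowest and highest as for Acot4, and 4 of 7 HFHS livers lay above all of LFLS. Its log2 difference was 1.81 ± 0.57 with an adjusted p of 0.0965 in edgeR, and with the title number as a term it was 1.63 ± 0.42 with an adjusted p of 0.0287. That second call was lost in 6 of 14 fits that each left out 1 library, those without LFLS 2, LFLS 3, LFLS 5, LFLS 7, HFHS 1 or HFHS 6, with adjusted p from 0.00408 to 0.0702 over all 14.

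By title number, Acot3 was 14.8 ± 13.6 CPM in LFLS and 36.8 ± 20.4 in HFHS (SD, n = 4 each) for number 1, a log2 difference of 1.34 ± 0.64 that did not pass (adjusted p = 0.193, edgeR). For number 2 it was 33.4 ± 9.30 CPM in LFLS and 137 ± 41.2 in HFHS (SD, n = 3 each), a log2 difference of 2.04 ± 0.26 that passed (adjusted p = 0.0181, edgeR). The test of whether the diet difference itself differed between the numbers gave a log2 value of 0.72 ± 0.83 with an adjusted p of 0.634 for Acot3 and 0.05 ± 0.34 with 0.951 for Acot4, so for neither gene was a difference between the numbers shown.

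Acot8, the third peroxisomal member and a type II enzyme of broad chain-length range, is known to act on acyl-CoAs and bile acid CoA esters. It ran from 15.9 to 32.8 CPM in LFLS (median 20.9) and from 18.0 to 20.8 in HFHS (median 19.5). The HFHS values lay inside the LFLS range, with a coefficient of variation of 4.79% against 24.1%. The log2 difference was -0.19 ± 0.13 with an adjusted p of 0.415 in edgeR. In title number 1 alone all 4 HFHS livers lay below all 4 LFLS livers, an arrangement shared by 10.5% of tested genes, and the value there was -0.32 ± 0.14 (adjusted p = 0.173, edgeR). In title number 2 it was 0.04 ± 0.12. Over all 14 libraries with an offset for GC content, the Acot8 value was -0.07 ± 0.08 (adjusted p = 0.667, edgeR).

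Acot2 and Acot1 encode the mitochondrial and the cytosolic long-chain enzymes of the cluster. Acot2 ran from 23.8 to 39.6 CPM in LFLS (median 36.1) and from 23.7 to 80.3 in HFHS (median 41.3). HFHS 5, HFHS 6 and HFHS 7 stood at 67.0, 80.3 and 52.2 CPM, while HFHS 2 and HFHS 4 lay within the LFLS range, HFHS 1 just above it at 41.3 and HFHS 3 at its lower edge at 23.7. Its pooled log2 difference was 0.47 ± 0.24 with an adjusted p of 0.301 in edgeR.

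The values of Acot2 by title number lay far apart. In number 1 it was 31.8 ± 7.49 CPM in LFLS and 31.3 ± 7.53 in HFHS (SD, n = 4 each), a log2 difference of -0.00 ± 0.20. In number 2 it was 36.0 ± 3.46 CPM in LFLS and 66.5 ± 14.0 in HFHS (SD, n = 3 each), a log2 difference of 0.90 ± 0.16 that passed (adjusted p = 0.0407, edgeR). The difference between these differences was 0.91 ± 0.30 on the log2 scale, with a p of 0.00866 and an adjusted p of 0.101 in edgeR, so it was not called. It passed when LFLS 4 (adjusted p = 0.0480) or HFHS 1 (adjusted p = 0.0450) was left out of the edgeR fit, and reached 0.230 at most over the 14 such fits.

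Acot1 ran from 22.9 to 47.1 CPM in LFLS (median 36.2) and from 22.2 to 69.4 in HFHS (median 39.5), with HFHS 5, HFHS 6 and HFHS 7 again above all of LFLS. The pooled log2 difference was 0.23 ± 0.25 with an adjusted p of 0.657 in edgeR. It was -0.18 ± 0.21 (adjusted p = 0.601, edgeR) in title number 1 and 0.57 ± 0.15 (adjusted p = 0.0967, edgeR) in title number 2, and the difference between these was 0.76 ± 0.30 with an adjusted p of 0.154. Whether reads that fit both Acot1 and Acot2 entered both counts was not tested.

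Acot9 and Acot13 are the type II members tied to mitochondria. Acot13 (also called Them2), a long-chain enzyme that partners with phosphatidylcholine transfer protein, ran from 22.1 to 47.0 CPM in LFLS (median 30.9) and from 32.9 to 54.5 in HFHS (median 44.2). All 7 HFHS livers lay above the LFLS median, but LFLS 1 at 47.0 CPM exceeded every HFHS liver except HFHS 6. Its log2 difference was 0.40 ± 0.16 with an adjusted p of 0.192 in edgeR. It was 0.36 ± 0.23 in title number 1 and 0.49 ± 0.13 in title number 2, neither of which passed. With the title number as a term it passed only when LFLS 1 was left out, at an adjusted p of 0.00837 in edgeR.

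Acot9, which acts on short- and long-chain acyl-CoAs in the mitochondrial matrix, had the lowest level of the 9, from 1.44 to 2.84 CPM in LFLS (median 2.08) and from 2.28 to 3.94 in HFHS (median 2.78). Its counts ran from 39 to 194 per library, so counting error was larger here than for the other members. All 7 HFHS livers lay above the LFLS median, and the log2 difference of 0.44 ± 0.16 did not pass (adjusted p = 0.134, edgeR). In title number 1 every HFHS liver lay above every LFLS liver (0.62 ± 0.23, adjusted p = 0.107, edgeR), and in title number 2 the diets overlapped (0.24 ± 0.19, adjusted p = 0.500, edgeR).

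Acot12 and Acot7 complete the cytosolic members. Acot12, which cleaves acetyl-CoA and is a liver enzyme, had the highest CPM of the family in both diets, 182 ± 45.8 in LFLS and 182 ± 32.0 in HFHS (SD, n = 7 each). Its log2 difference was 0.01 ± 0.16 with an adjusted p of 0.989 in edgeR. Its livers separated by title number instead: title number 1 livers ran from 126 to 171 CPM, and title number 2 livers from 195 to 236, with no overlap.

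Acot7, an enzyme best known from brain and for arachidonoyl-CoA, ran from 13.8 to 41.7 CPM in LFLS (median 16.9) and from 15.6 to 21.3 in HFHS (median 18.9). LFLS 1 at 41.7 stood alone, with the next LFLS liver at 20.6. The log2 difference was -0.13 ± 0.21 with an adjusted p of 0.769 in edgeR, and without LFLS 1 it turned to 0.14 with an adjusted p of 0.505 in edgeR.

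**Figure D3:**
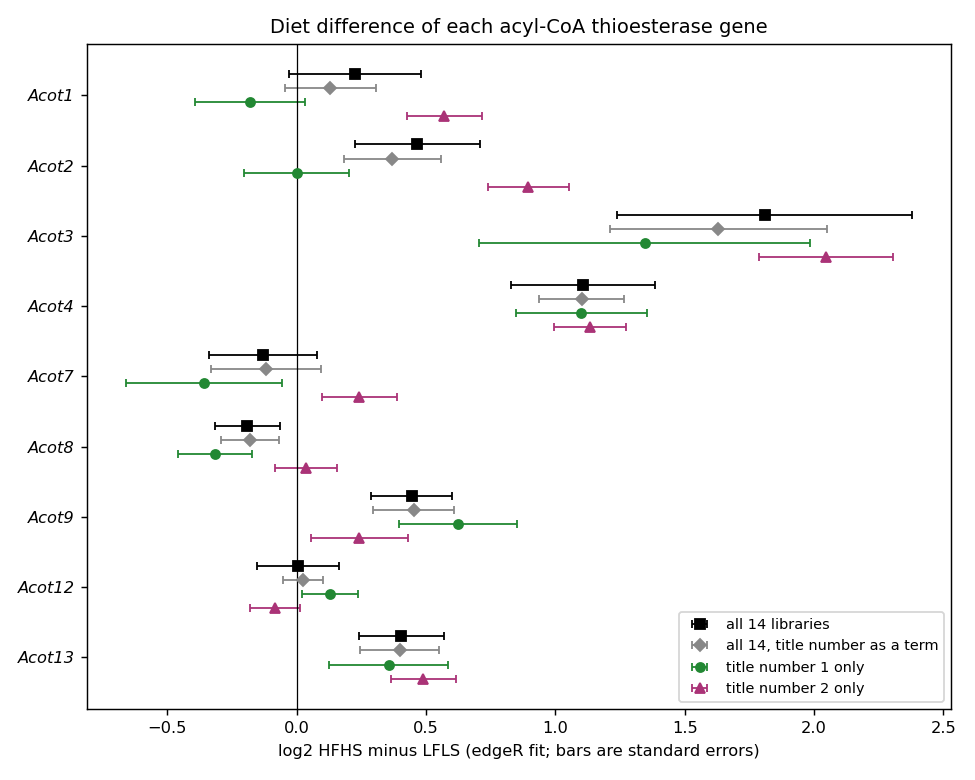
Log2 difference of HFHS minus LFLS for each gene (horizontal axis, edgeR fit, bars are standard errors) over all 14 libraries (black), over all with the title number as a term (grey), and within title number 1 (green) and 2 (magenta). The 4 values of Acot4 lie between 1.10 and 1.13, while those of Acot2 run from -0.00 to 0.90.

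Counting members by title number, 1 of 9 was called in number 1 (Acot4), where 5.30% of genes were called higher, and 3 of 9 in number 2 (Acot2, Acot3 and Acot4), where 0.788% were. HFHS lay wholly above LFLS for 2 of 9 members in number 1 (Acot4 and Acot9, against 12.4% of tested genes) and for 5 of 9 in number 2 (Acot1, Acot2, Acot3, Acot4 and Acot13, against 13.1%). Over all 14 livers 0 of 9 were free of overlap, as were 1.65% of tested genes. The diet difference differed between the title numbers for 0 of 9 members at an adjusted p under 0.05 and for 2 of 9 at an unadjusted p under 0.05 (Acot1 and Acot2), against 0.883% and 22.6% of tested genes.

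The title number itself moved with the level of 5 members when diet was a term in the edgeR fit, and 28.8% of tested genes passed the same test. Title number 2 livers were higher by a log2 of 1.54 for Acot3 (adjusted p = 0.0153), 0.88 for Acot4 (0.00301), 0.75 for Acot1 (0.00854), 0.64 for Acot2 (0.0211) and 0.54 for Acot12 (0.000979). These are the 4 type I members and the acetyl-CoA enzyme. Acot7, Acot8, Acot9 and Acot13 did not pass, with log2 values of -0.12, -0.23, 0.10 and 0.24. What the title number marks cannot be told apart from any other difference between those libraries.

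Within the family, levels were compared per kilobase of M21 exon length. In LFLS the order was Acot12 at 55.1 ± 13.9 CPM per kilobase, Acot13 at 43.0 ± 11.9, Acot2 at 15.3 ± 2.77, Acot8 at 11.1 ± 2.68, Acot7 at 9.62 ± 4.58, Acot1 at 9.03 ± 1.97, Acot4 at 6.82 ± 2.54, Acot3 at 6.62 ± 4.32 and Acot9 at 0.936 ± 0.191 (SD, n = 7). The ranges of mean ± SD of neighbours in this order overlapped, apart from the steps from Acot13 to Acot2 and from Acot3 to Acot9. In HFHS the same pair stood at the top, Acot13 at 57.0 ± 9.78 and Acot12 at 55.4 ± 9.72 in the reverse order and with overlapping ranges of mean ± SD, and Acot9 was again lowest at 1.27 ± 0.224. Acot3 came next after the top pair at 23.2 ± 17.5, then Acot2 at 21.1 ± 9.64 and Acot4 at 14.7 ± 5.73. The place of Acot4 is uncertain, since its 6674 bases of M21 exons may not be the stretch the authors counted.

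Some of these genes also varied together from liver to liver, in the cluster and outside it. Over the 14 libraries log2 CPM of Acot3 and Acot4 correlated at a Pearson r of 0.971 (Spearman rho 0.938), and at 0.930 after the mean of each diet and title number was removed. The same values were 0.854 and 0.835 for Acot2 with Acot3, and 0.818 and 0.894 for Acot2 with Acot4. For Acot1 with Acot4 they were 0.636 and 0.499. Acot6, also of the cluster, followed less: 0.470 and 0.145 with Acot4, and 0.293 and -0.186 with Acot3. With Acot2 it gave 0.223 and 0.070, and with Acot1 -0.090 and -0.277. Acot13, outside the cluster, gave 0.844 and 0.716 with Acot3 and 0.791 and 0.579 with Acot4. Acot12 with Acot1 gave 0.733 and 0.567. Such correlations were thus not confined to the cluster. Whether the whole cluster shares them is not shown. Acot6 stood at only 2.07 CPM in LFLS and 3.31 in HFHS, where counting error is larger, and Acot5 was not among the tested genes. LFLS 1 was the highest title number 1 LFLS liver for Acot1, Acot3, Acot4, Acot12 and Acot13, and its part in these values was not tested. Outside the cluster, Acot7 and Acot13 correlated at 0.604, and at 0.932 after the means were removed, with LFLS 1 high in both. These correlations are descriptions over 14 libraries. Both genes of a pair were measured in the same libraries, with the same depth and title number at each point, and transcripts of Acot1 to Acot4 hold some of the same 50-base windows.

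**Figure D4:**
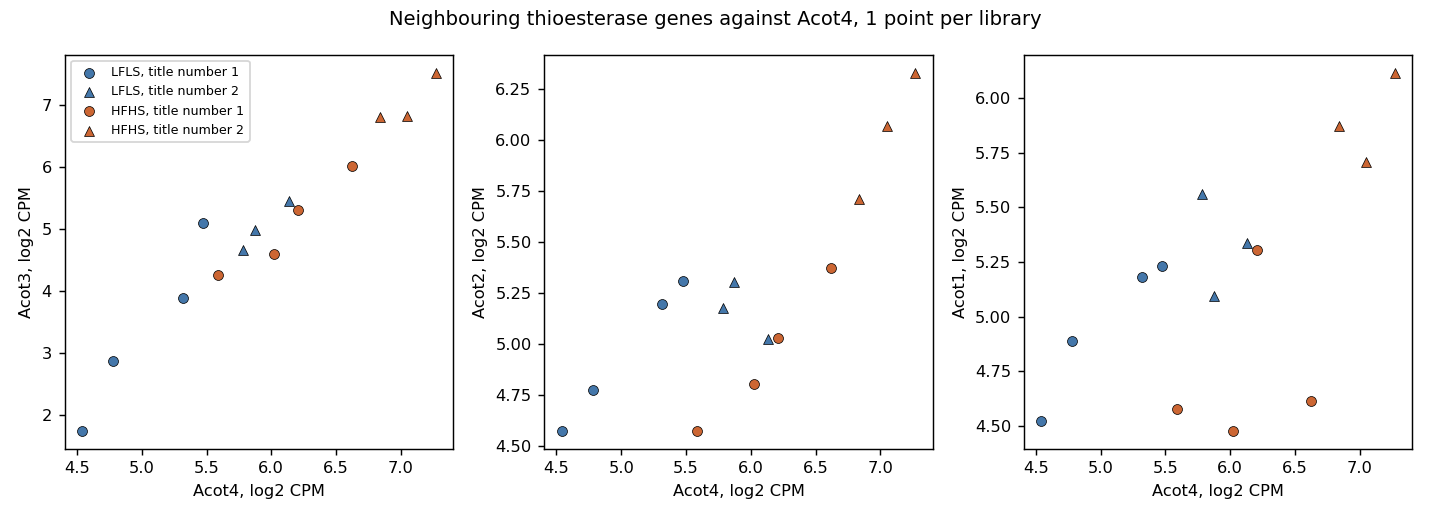
Log2 CPM of Acot3, Acot2 and Acot1 (vertical axes) against log2 CPM of Acot4 (horizontal axes), 1 point per liver, coloured by diet and shaped by title number. Acot3 follows Acot4 across all 14 livers (r = 0.971), while for Acot1 (r = 0.636) 3 title number 1 HFHS livers lie below livers with similar Acot4 levels.

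By the same measure, the 5 genes most like Acot4 among all tested genes were 4732463B04Rik (r = 0.997), Acot3 (0.971), Nln (0.941), Gm872 (0.932) and 4931406C07Rik (0.916). Nln encodes the peptidase neurolysin and stood at 38.9 ± 3.93 CPM in LFLS and 51.4 ± 8.04 in HFHS (SD, n = 7; log2 0.40, adjusted p = 0.0544, edgeR). 4931406C07Rik rose from 206.9 ± 43.4 to 305.8 ± 49.8 CPM (log2 0.56, adjusted p = 0.0451, edgeR), a call that held without LFLS 5, LFLS 6 or HFHS 3 and was lost without any other 1 of the 14 libraries (adjusted p up to 0.113). After the means of diet and title number were removed, r was 0.994 for 4732463B04Rik, 0.930 for Acot3, 0.700 for Gm872, 0.685 for Nln and 0.385 for 4931406C07Rik.

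The closest of these bears on the Acot4 value itself. 4732463B04Rik, a long noncoding RNA in the authors' deposited table, had between 1.89 and 2.23 times the count of Acot4 in every library. Its log2 diet difference was 1.13 ± 0.31 (adjusted p = 0.0625, edgeR; 0.00360 with the title number as a term), and 1.06 and 1.20 within title numbers 1 and 2. Its identifier in the count table is absent from GENCODE M21, where the symbol belongs to a gene on the minus strand that runs across the Acot4 and Acot3 loci. The exons of that M21 gene cover 615 of the 6674 exon bases of Acot4 and 312 of the 3438 of Acot3 on the opposite strand. Without strand, reads of Acot4 and of a transcript lying over it cannot be told apart, so the rise of Acot4 is that of the reads counted at its locus.

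Because Acot3 and Acot4 varied together, the 250 bases before the start of each are shown, from RefSeq (GRCm38.p6, plus strand), with any match to AGGTCA on either strand in capitals. A direct repeat of this 6-base motif, AGGTCANAGGTCA, is the kind of element to which PPAR alpha binds with its partner RXR. 
Acot4 (chr12:84038129-84038378): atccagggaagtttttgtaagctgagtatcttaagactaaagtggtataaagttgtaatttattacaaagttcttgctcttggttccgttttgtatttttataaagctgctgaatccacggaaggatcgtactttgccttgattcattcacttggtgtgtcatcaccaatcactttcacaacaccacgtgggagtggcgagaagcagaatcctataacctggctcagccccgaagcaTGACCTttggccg
Acot3 (chr12:84051894-84052143): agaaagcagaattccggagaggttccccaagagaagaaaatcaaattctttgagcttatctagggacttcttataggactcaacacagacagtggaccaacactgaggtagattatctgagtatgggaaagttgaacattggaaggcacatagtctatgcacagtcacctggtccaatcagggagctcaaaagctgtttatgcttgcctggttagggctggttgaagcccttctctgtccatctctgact
Acot4 held 1 match, on the minus strand and starting 13 bases before the gene's start, and Acot3 held 0 before its start. Over 27025 promoters of 300 bases, from 250 before to 50 after the start, AGGTCA on either strand occurred in 16.04% and AGGTCANAGGTCA in 0.0444%. In that longer window Acot3 held 1 match to AGGTCA and Acot1 and Acot2 held 0. None of Acot1 to Acot4 held the exact full repeat, and imperfect repeats were not searched for. The match is a description of the letters and says nothing of what binds there.

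Genes around the thioesterases in the pathway were taken from lists chosen by function. Their counts are to be read against all tested genes, of which edgeR called 1.37% higher and 1.44% lower. DESeq2 called 3.15% and 4.15%, limma voom 9.96% and 9.05%, and edgeR with the title number as a term 4.38% and 4.56%. An unadjusted p under 0.05 in edgeR was reached by 19.6%, 1517 of the 17223 higher and 1861 lower. Of 13 tested other enzymes that cleave CoA or thioester bonds, 0 were called by edgeR's test, with a median log2 difference of 0.18. At an unadjusted p under 0.05 there were 5 higher and 1 lower, with DESeq2 3 and 1, and with limma voom 4 and 1. The 4 with the smallest p were Acot6, the last gene of the cluster (2.07 ± 0.680 to 3.31 ± 0.539 CPM, log2 0.69 ± 0.19, adjusted p = 0.0663, edgeR), Acot10, Ppt1, a lysosomal palmitoyl-protein thioesterase, and Nudt7. Acot10, the near copy of Acot9, differed by a log2 of 0.59 ± 0.18 and Ppt1 by 0.32 ± 0.10. Nudt7, a peroxisomal enzyme that cleaves CoA itself rather than the thioester bond, stood at 660.4 ± 158.9 CPM in LFLS and 416 ± 121.5 in HFHS (log2 -0.67 ± 0.21, adjusted p = 0.0901, edgeR). With the title number as a term, 4 of the 13 were called higher and 0 lower.

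Of 18 tested acyl-CoA synthetases, which make the substrates of thioesterases, 1 was called higher and 0 lower by edgeR, with a median log2 difference of 0.03. At an unadjusted p under 0.05 there were 3 higher and 0 lower, with DESeq2 1 and 0, with limma voom 6 and 0, and with the title number as a term in edgeR 1 and 0. Acss3, a short-chain synthetase of mitochondria, rose from 18.0 ± 6.48 to 41.3 ± 11.1 CPM (log2 1.20 ± 0.23, adjusted p = 0.0144, edgeR), a size close to that of Acot4, and stayed under 0.05 whichever library was left out. Of 13 genes for CoA synthesis and acyl-CoA binding, 0 were called higher and 1 lower by edgeR, with a median of 0.03. At an unadjusted p under 0.05 there was 1 in each direction, as with the title number as a term, while DESeq2 gave 0 and 1 and limma voom 3 and 1. The gene called lower, Dcakd, named for a dephospho-CoA kinase domain, fell by 0.40 on the log2 scale, from 34.6 ± 5.03 to 26.2 ± 1.71 CPM (adjusted p = 0.0361, edgeR). Its call held without LFLS 1 or LFLS 6 and was lost without any other 1 of the 14 libraries, with an adjusted p of up to 0.0892.

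Of 34 tested PPAR alpha target genes other than the Acot genes, 1 was called higher and 0 lower, with a median log2 difference of 0.06. Hadh, a mitochondrial beta-oxidation enzyme, rose from 280.8 ± 51.0 to 410.6 ± 38.0 CPM (log2 0.55 ± 0.12, adjusted p = 0.0222, edgeR), and the call was lost without HFHS 2 or without HFHS 5 (adjusted p of 0.0559 at most). Pex11a, a factor of peroxisome division, Acadm, the medium-chain acyl-CoA dehydrogenase, and Aldh3a2 followed with log2 values of 0.62, 0.35 and 0.58 and did not pass. At an unadjusted p under 0.05 there were 6 higher and 2 lower, with DESeq2 6 and 0, with limma voom 8 and 1, and with the title number as a term in edgeR 3 and 0. Of the 8 regulators, 0 were called by edgeR, with a median of -0.28. At an unadjusted p under 0.05 there were 2 higher and 4 lower, with DESeq2 1 and 2, and with limma voom 2 and 2. Ppara itself stood at 301.8 ± 42.4 CPM in LFLS and 290.2 ± 11.7 in HFHS (log2 -0.06 ± 0.09, adjusted p = 0.774, edgeR). Hnf4a, a hepatocyte transcription factor, had a log2 value of -0.51 ± 0.13 (adjusted p = 0.0518, edgeR) and Pparg of 0.90 ± 0.25 (adjusted p = 0.0629, edgeR). With the title number as a term in edgeR, 4 of the 8 regulators passed, Pparg higher (adjusted p = 0.0337) and Hnf4a (0.0204), Rxra (0.0434) and Ppard (0.0469) lower.

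The sign of the log2 in the authors' deposited table matched HFHS minus LFLS for 484 of the 484 genes called here. The authors' deposited table gave Acot4 a fold of 2.05 with a p of 0.01 and an adjusted p of 0.79. In the authors' deposited table Acot3 had a fold of 3.36, a p of 0.03 and an adjusted p of 1, and the other 7 members also had an adjusted p of 1. The direction and size for Acot4 and Acot3 were thus close to those of the edgeR fit, while neither was called. DESeq2, a later method of the same kind, called both on the same counts, with adjusted p of 0.00383 for Acot4 and 0.0403 for Acot3, where it called 7.30% of all tested genes, 3.15% higher.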

How the data were processed

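RNA from 14 mouse livers was measured. Per the submitters' processing notes, CASAVA 1.8, TopHat, Bowtie and DESeq were used with build mm9. Neither the counting tool nor the annotation is given in the sources used here. In the deposited count table are whole numbers per Ensembl gene, never below 1, with 11120 genes at 1 in every library. The authors' results table holds a DESeq mean over all libraries as a signal value, the authors' fold (a ratio of group means), its log2, and the DESeq p-value and adjusted p-value, per the file headers. Its 2 columns of group means, whose headers name no diet, were not used.

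Counts were tested with edgeR 4.0.16 (R 4.3.3) by the quasi-likelihood F test, with TMM scaling, its default low-count filter by diet (17223 genes), no covariates, and Benjamini-Hochberg adjustment over all tested genes, called under 0.05. Depth was 18.2 M to 52.8 M counts per library. Each library was 1 mouse, so p-values rest on spread between mice. In the fit without covariates, that spread includes any difference between the title numbers. CPM are TMM-scaled. Correlations used log2 CPM with a prior count of 2. Alternatives were DESeq2 1.42.0, limma 3.58.1 (voom, with weights for library quality), other scalings and filters, 1 subtracted from every count, blocks for the title number or the 7 title pairs, either title number alone, and dropping 1 library at a time. Added once the data had been seen were a GC offset, with and without the block, leave-one-out with the block, and leave-one-out of the test between title numbers. Between diets, the deviations of libraries from their diet mean had an average correlation of 0.129 where the title number was shared and of -0.134 where it was not. The fit was tested on simulated data.

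The members and lists were chosen with earlier results of these data known. Named were all 9 members, up to 4 genes of each list with the smallest p, and the 5 genes most correlated with the called member; Ppara was named after its value was seen. Transcripts and exon lengths are from GENCODE M21 and promoters from RefSeq, which held 8 of the 9 members (Acot13 had no entry). Both are GRCm38, not mm9, and no M21 coordinates were joined to the authors' files.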

Additional observations from a re-analysis of the deposited data

Results flagged for a closer look

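In 2 of the 18 groups formed by 9 genes and 2 diets, 1 liver stood farther from the other 6 than Dixon's criterion for 7 samples allows. Chance alone gives about 1 in 20 such groups. The first was Acot7 in LFLS 1, at 41.7 CPM, where the gap to the next liver was 0.757 of the LFLS range. LFLS 1 was also the highest LFLS liver for Acot8 (32.8 CPM), Acot13 (47.0 CPM) and, narrowly, Acot2 (39.6 CPM, with LFLS 5 at 39.4). It had the strongest link between gene level and GC content of the 14 libraries (r = 0.642) and the highest summed endothelial (309 CPM) and bile duct (9.03 CPM) markers, and the part of these in its Acot7 level was not tested. The second was Acot9 in HFHS 1, at 3.94 CPM, where the gap was 0.626 of the HFHS range. HFHS 1 also had the highest summed stellate markers (440 CPM), whose part was not tested.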

How the results depend on the processing

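All genes called numbered 484, and 1258 with DESeq2, 3274 with limma voom, 173 with no filter, 1540 with the title number as a block, 1484 and 269 in title numbers 1 and 2 alone, and 1263 with the GC offset and that block. Scaling by library totals alone turned 236 higher and 248 lower into 379 and 152. Members called higher numbered 1 (Acot4), and 2 with DESeq2, 2 with the title number as a block and 2 with the GC offset and that block (Acot3 and Acot4 each time), 3 with voom and 3 with the title pairs as a block (Acot3, Acot4 and Acot13), 3 in title number 2 alone, and 0 with no filter, where Acot4 had an adjusted p of 0.0670. No member was called lower under any of the 41 alternatives, over which Acot4 was called in 28, Acot3 in 14, Acot13 in 3, Acot2 in 1 and the others in 0. These tallies include the fits added once the data had been seen. Of the added fits, each with a GC offset called Acot4. Added leave-one-out fits with the block called Acot4 in 14 of 14 and Acot3 in 8 of 14. The planned leave-one-out fits, without the block, called Acot4 in 2 of 14 and Acot3 in 0 of 14. Leaving out 1 library gave 133 to 853 genes and 0 to 1 members. With the title number block it gave 650 to 1862 genes and 1 to 3 members. The title pairs are not established: deviations within a pair correlated at -0.0690 to 0.415, above 0.1 in 4 of 7.

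Log2 signs turned for 5 members, none of them called where this happened. In title number 1 alone Acot1 was -0.179 and Acot2 -0.000317. In title number 2 alone Acot7 was 0.242, Acot8 0.0375 and Acot12 -0.0840. Acot7 was 0.121 with voom, 0.0422 with the GC offset and 0.0344 with the offset and block. Acot12 was -0.0283 with no filter, -0.0930 with the GC offset and -0.0968 with the offset and block. With 1 library left out, Acot7 ran from -0.205 to 0.145 and Acot12 from -0.0669 to 0.0878. With the block as well, Acot7 ran from -0.197 to 0.150 and Acot12 from -0.0195 to 0.0728. The difference between title numbers then ran from -0.139 to 1.14 for Acot3, -0.119 to 0.243 for Acot4 and -0.140 to 0.271 for Acot13. The cause of these moves was not tested.

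Depth limits Acot9 most, at 39 to 194 counts. Reads shared by Acot1 and Acot2, or lying over Acot4 on the other strand, are not resolved by any setting tried.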
